A study of Mus musculus with 8 samples.

Results

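The comparison is between lung RNA of SMRTmRID embryos (called mRID below) whose mothers ate a diet with 0.15% PTU and lung RNA of mRID embryos whose mothers ate control chow. The diets were given for 2 days from E16.5 (embryonic day), and the lungs were taken at E18.5. Each of these groups was measured on 2 of the 8 Illumina bead arrays of the study, and the other 4 arrays held wild-type lungs, 2 with PTU and 2 on control chow. Both mRID groups carry the mutation, so the mRID chow RNA is that of a mutant lung and not of a normal one. The labels call the arrays of a group technical replicates, so each group is 1 RNA sample. The sources used here do not say how many embryos or litters were pooled for each RNA sample. A probe was used when its detection p-value was under 0.05 on both arrays of either mRID group, which held for 14457 of 25697 probes and gave 9998 named genes.

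Hormone receptors without their ligand bring corepressors to genes, which keep them silent through histone deacetylases. Corepressors dock on nuclear receptors, such as the thyroid hormone receptors, through receptor interaction domains. PTU (propylthiouracil) blocks the synthesis of thyroid hormone in the thyroid gland, and it crosses the placenta. Late in gestation the lung thins its walls, spreads flat type I pneumocytes over the gas-exchange surface and fills its type II pneumocytes with surfactant, and thyroid hormone and glucocorticoids both act on this period. The series title ties the mutation to type I pneumocytes and to thyroid hormone receptor (TR) repression, and the PTU arm asks what lowering thyroid hormone does to the mutant lung.

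Between 55.9% and 58.8% of probes were detected on the 4 mRID arrays, and the arrays of each group correlated at 0.997. Arrays of the PTU and chow mRID groups correlated at 0.990 to 0.991. The root mean square log2 difference of the mRID PTU RNA was 0.26 from the mRID chow RNA, 0.28 from the wild-type PTU RNA and 0.28 from the wild-type chow RNA. The mRID chow RNA was 0.19 from the wild-type PTU RNA and 0.21 from the wild-type chow RNA, and the wild-type PTU RNA was 0.28 from the wild-type chow RNA. Of 26 type II and surfactant genes, 25 were detected on all 4 mRID arrays. All 17 type I markers that passed the detection filter were too, while 2 further type I markers with a probe did not pass. Sftpc, the surfactant protein made by type II cells, had log2 signals of 13.61 and 13.63 with PTU and 13.75 and 13.66 on chow, and Pdpn, a membrane protein of type I cells, had 11.39 and 11.52 with PTU and 11.43 and 11.48 on chow. The Y-linked genes Uty and Kdm5d and the X inactivation RNA Xist differed by 0.02, 0.02 and 0.14 between the mRID groups on the log2 scale.

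All values below are normalized log2 signals, and differences are PTU minus chow on the log2 scale, where 1 is a 2-fold change. An offset of 16 added in the normalization makes differences of dim genes smaller than they would otherwise be. The standard error (SE) given covers the spread of the 2 arrays of each group and not the spread between animals, so no test across animals was possible and no p-value is given. A gene was called when the group means differed by at least 1.5-fold and the arrays of the groups did not overlap. The condition on overlap left out 0 genes in the mRID comparison. Since the tissue was measured in bulk, fewer cells of a type and less RNA per cell cannot be told apart for any gene below.

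PTU went with more calls upward than downward in the mRID lung. Of 9998 genes, 346 (3.46%) were called, 262 higher (2.62%) and 84 lower (0.84%). The higher genes differed by 1.5-fold to 4.48-fold with a median of 1.78-fold, and the lower genes by 1.5-fold to 3.84-fold with a median of 1.67-fold. At least 2-fold differences were found for 67 higher and 14 lower genes. All genes together had a median difference of -0.02 and a median SE of 0.088, and 45.2% of them had a positive difference. Of the 9998 genes, 9373 passed the detection filter in both groups, 430 through the PTU arrays alone and 195 through the chow arrays alone. Within the 9373 genes, 225 were higher and 77 lower, while 37 of the higher genes had passed through the PTU arrays alone and 7 of the lower genes through the chow arrays alone. On the edge of the rule, Mafk at 1.50225-fold was called and Lpgat1 at 1.49920-fold was not.

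**Figure D1:**
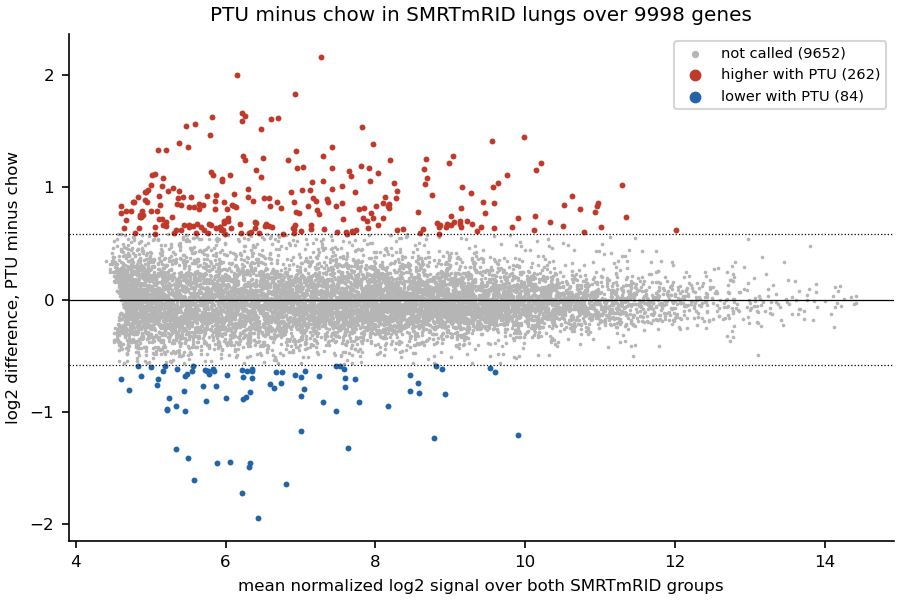
Each point is 1 of 9998 genes, with its mean normalized log2 signal over both mRID groups on the horizontal axis and its log2 difference, PTU minus chow, on the vertical axis. Red points are the 262 genes called higher, blue points the 84 called lower, and dotted lines mark 1.5-fold. Called genes lie at all but the highest signals, and the red points outnumber the blue ones.

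The gene with the largest higher difference was Zc3h13, which encodes a subunit of the complex that writes the m6A mark on messenger RNA. Zc3h13 had 8.40 and 8.31 on the PTU arrays, against 6.14 and 6.25 on the chow arrays, a difference of 2.16 (SE 0.07) or 4.48-fold. Irs2, an adaptor that carries the signal of the insulin and insulin-like growth factor receptors, had 7.19 and 7.13 with PTU, against 5.13 and 5.19 on chow, a difference of 2.00 (SE 0.04). Bbx, a chromatin protein with an HMG box, had 7.79 and 7.91 with PTU, against 6.22 and 5.82 on chow. For each of these 3 genes both PTU arrays lay above both chow arrays, as the call rule requires. The gap between groups was several times that between the technical arrays of a group. These genes were picked for the size of this difference, so the gap is no further support for it. Man2a2, a mannosidase of the Golgi that trims N-linked sugar chains, had 7.10 and 7.01 with PTU, against 5.39 and 5.40 on chow. Ddx6, a helicase of the RNA granules where messenger RNAs are stored and decapped, had 7.58 and 7.45 with PTU, against 5.87 and 5.92 on chow.

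Man2a2 and Ddx6 each had 3 kept probes, and all of them were called higher. The Man2a2 probes differed by 1.67, 1.08 and 1.51, and the Ddx6 probes by 1.62, 1.93 and 1.08. Lims1, an adaptor that links integrins to the actin cytoskeleton, had 6.70 and 7.45 with PTU, against 5.30 and 5.58 on chow. Its difference was 1.63 with an SE of 0.40, since its PTU arrays differed by more than those of the other leading genes. The rest of the 15 largest higher differences among genes detected on all 4 arrays included Acta1 at 1.63, Atxn1 at 1.61, Bach1 at 1.59, Iffo2 at 1.56, Eif4ebp2 at 1.53, Zmiz1 at 1.52, Ier2 at 1.47, Klf6 at 1.45 and Zeb2 at 1.42. Bach1 is a repressor of genes of haem and oxidative stress, Zmiz1 a coactivator, and Zeb2 a zinc-finger repressor of epithelial genes. Zeb2 had 10.30 and 10.23 with PTU, against 8.73 and 8.96 on chow.

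A further 23 higher genes were undetected on both chow arrays, so their folds are lower bounds against the dimmest detected signal. The largest of these bounds were at least 2.20-fold for Rnf125, at least 1.97-fold for Ttr, at least 1.92-fold for Adap2, at least 1.84-fold for Itga2 and at least 1.76-fold for Map4. Rnf125 is a ubiquitin ligase, Ttr the carrier of thyroid hormone in blood, Itga2 a collagen receptor chain and Map4 a protein of microtubules.

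**Figure D2:**
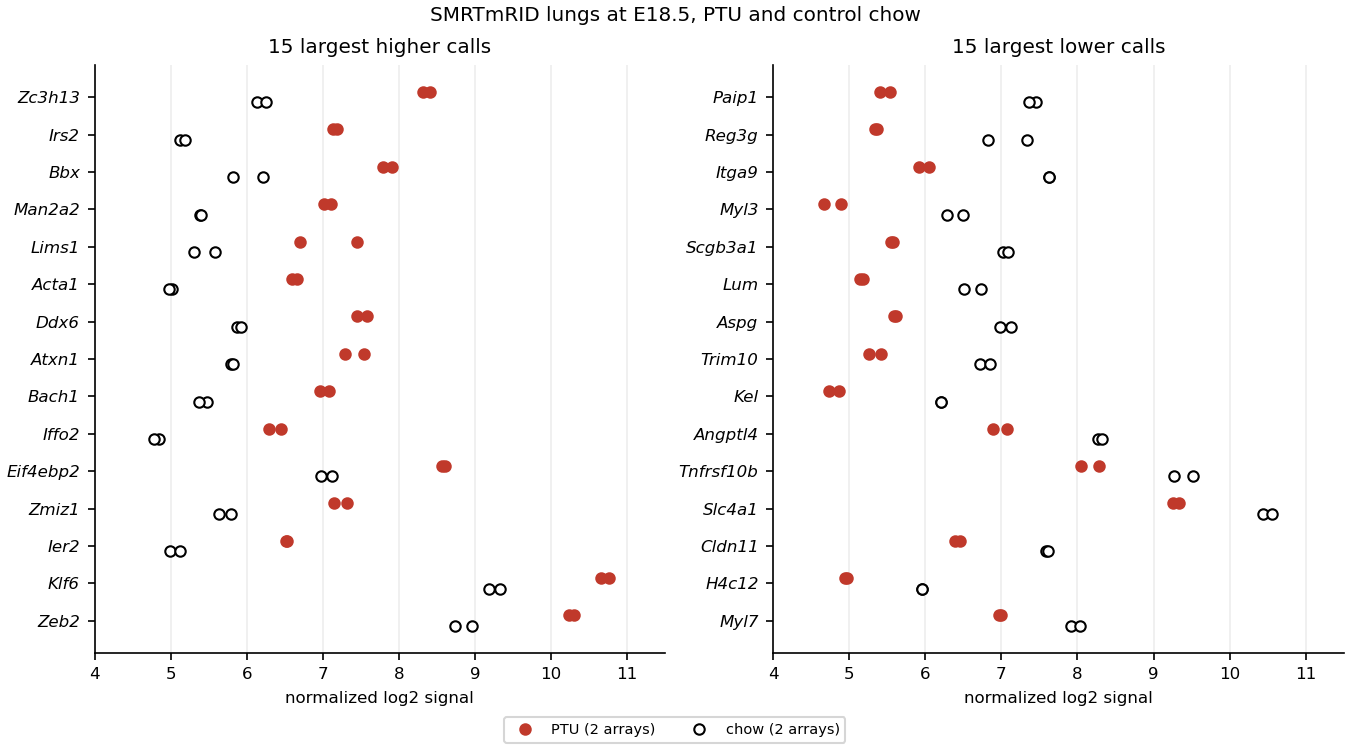
Normalized log2 signals of the 15 genes with the largest higher (left) and the 15 with the largest lower (right) differences among called genes detected on all 4 mRID arrays. Filled red points are the 2 PTU arrays and open points the 2 chow arrays of each gene. The points of the groups are apart for every gene shown, as the call rule requires. Those of Lims1 with PTU are the furthest apart within a group.

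Of the 5 largest lower differences, 4 were in genes that were also lower in the mRID chow RNA than in the wild-type chow RNA. Paip1, a partner of the poly(A)-binding protein in translation, had 5.40 and 5.54 with PTU, against 7.46 and 7.36 on chow, a difference of -1.94 (SE 0.08) or 3.84-fold. Reg3g, an antibacterial lectin of airway epithelium, had 5.35 and 5.36 with PTU, against 6.82 and 7.33 on chow. Itga9, an integrin chain of muscle and lymphatic vessels, had 6.05 and 5.92 with PTU, against 7.63 and 7.62 on chow. Scgb3a1, a secretoglobin of airway secretory cells, had 5.55 and 5.58 with PTU, against 7.03 and 7.09 on chow. All 4 genes had higher signals in the wild-type chow RNA than in either mRID group, at 8.90 and 8.80 for Paip1, 8.89 and 8.96 for Reg3g, 8.97 and 9.0 for Itga9 and 9.72 and 9.76 for Scgb3a1. In the wild-type PTU RNA, Paip1 had 4.62 and 4.69, Reg3g 5.71 and 5.89, Itga9 5.55 and 5.54 and Scgb3a1 5.65 and 5.33.

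Lum, the collagen-binding proteoglycan lumican, had 5.18 and 5.15 with PTU, against 6.50 and 6.74 on chow. Aspg, an asparaginase, had 5.61 and 5.59 with PTU, against 7.13 and 6.98 on chow. Angptl4, a secreted inhibitor of lipoprotein lipase, had 6.89 and 7.07 with PTU, against 8.27 and 8.33 on chow. The PTU and chow arrays did not overlap for any of these, which the call rule requires. The other leading lower genes were Myl3 at -1.61, Trim10 at -1.45, Kel at -1.41, Tnfrsf10b at -1.23, Slc4a1 at -1.20, Cldn11 at -1.17, H4c12 at -0.99 and Myl7 at -0.99. Tnfrsf10b is a death receptor, Cldn11 a tight junction protein and H4c12 a gene of histone H4, one of many near-identical copies that a probe may not tell apart. Of the 3 lower genes undetected on both PTU arrays, Foxc2, a transcription factor of lymphatic vessels, was at least 1.55-fold lower, the keratin gene Krt13 at least 1.45-fold and the heart myosin light chain gene Myl2 at least 1.30-fold.

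Thyroid hormone genes were looked at first among the gene lists because the diet acts on this hormone. The counts of this and every later list stand beside 2.62% called higher and 0.84% called lower over all genes. Of 14 tested members of the list of thyroid hormone transport, deiodination, receptors and responsive genes, 2 were called higher and 0 lower, with a median of -0.05. Over the 12 that passed the detection filter in both groups, 1 was called higher and 0 lower, with a median of -0.13. Klf9, a zinc-finger factor that thyroid hormone and glucocorticoids directly induce in many tissues, had 11.03 and 11.15 with PTU, against 10.40 and 10.57 on chow, a difference of 0.61 (SE 0.11). Ttr had 5.68 and 5.55 with PTU, against 4.56 and 4.43 on chow, where it was undetected. Thra, a thyroid hormone receptor gene, had 5.03 and 5.08 with PTU, against 4.43 and 4.86 on chow, a difference of 0.41 that was not called. Thrb, Dio1 and Dio2, which encode the other receptor and deiodinases that activate the hormone, were undetected on all 4 mRID arrays, and 8 members with a probe, these 3 included, did not pass the detection filter.

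Of 15 genes of the corepressor complex and its counterparts, 2 were called higher and 0 lower, with a median of 0.00. Over the 14 that passed the detection filter in both groups, 1 was called higher and 0 lower, with a median of -0.02. Tbl1x, a subunit of nuclear receptor corepressor complexes, had 7.20 and 6.91 with PTU, against 6.45 and 6.49 on chow, just past the threshold at 1.5-fold. Ncoa2, a coactivator that binds liganded receptors, had 5.36 and 5.09 with PTU and was undetected on chow, at least 1.5-fold higher. Of 13 nuclear receptor genes, 1 was called higher and 1 lower, with a median of 0.11. Rora, an orphan receptor, had 6.66 and 7.15 with PTU, against 6.17 and 6.34 on chow, and Nr2f1, a mostly repressive orphan receptor, had 8.55 and 8.61 with PTU, against 9.13 and 9.26 on chow.

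Insulin and RNA turnover genes held several of the largest differences, although the lists as wholes were near the median of all genes. In the list of 22 insulin and insulin-like growth factor genes, 3 were called higher and 1 lower. The shares over all genes were 2.62% higher and 0.84% lower. The list had a median of 0.11 and 16 positive differences. Eif4ebp2, a repressor of translation that mTOR inactivates, had 8.57 and 8.60 with PTU, against 6.98 and 7.12 on chow. Pik3r1, the regulatory subunit of phosphoinositide 3-kinase, had 11.21 and 11.07 with PTU, against 10.47 and 10.18 on chow, and its other probe differed by 0.83 where the first differed by 0.81. Together with Irs2 these were the 3 higher members. Igfbp2, a secreted binding protein of insulin-like growth factors that also marks maturing type I cells, was lower, with 6.81 and 6.49 with PTU, against 7.56 and 7.34 on chow.

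Of 24 genes of RNA methylation, poly(A) binding and messenger RNA decay, 4 were called higher and 1 lower, with a median of 0.02. The shares over all genes were 2.62% higher and 0.84% lower. Over the 22 that passed the detection filter in both groups, 3 were called higher and 1 lower. Beside Zc3h13 and Ddx6, the higher members were Pabpn1, the nuclear poly(A)-binding protein, with 11.42 and 11.32 with PTU against 10.53 and 10.54 on chow, and Xrn1, the exonuclease that degrades decapped messenger RNA, at least 1.5-fold. Paip1 was the lower member. Other members of the m6A writer and the decapping machinery on the list were not called.

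Immediate early genes, which cells transcribe within minutes of a stimulus, included 5 genes that were higher with PTU. Of 17 tested, 0 were called lower, with 13 positive differences and a median of 0.20, against 2.62% called higher and a median of -0.02 over all genes. Ier2 had 6.52 and 6.53 with PTU, against 4.99 and 5.13 on chow. Klf6, a zinc-finger factor induced by injury, had 10.76 and 10.65 with PTU, against 9.19 and 9.33 on chow, and its other probe differed by 1.86. Fos, a subunit of the AP-1 factor, had 9.62 and 9.70 with PTU, against 8.64 and 8.69 on chow, a 2.00-fold difference. As the call rule requires, none of these arrays overlapped between the diets.

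Egr1, a zinc-finger factor of growth signals, had 9.97 and 10.05 with PTU, against 9.09 and 9.20 on chow. Ccn1, a matrix-associated signalling protein, had 8.47 and 8.61 with PTU, against 7.76 and 7.59 on chow. Its other probes differed by 1.26 and 0.50. Ccn2 and Dusp1 were not called, with differences of 0.55 and 0.39, and Egr2 had -0.38. The order of the 4 RNA samples differed between these genes. For Fos, Egr1 and Ier2 the wild-type chow RNA was highest, with 10.35 and 10.50 for Fos, 10.74 and 10.60 for Egr1 and 6.88 and 6.88 for Ier2, so the mRID PTU values lay between the mRID chow and the wild-type chow values. For Klf6 the wild-type chow RNA had 9.67 and 9.73, below the mRID PTU values.

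The 250 bases before the start of 4 of the called zinc-finger and early genes are shown so that the letters before the start of genes called higher can be read beside their values. The sequences are RefSeq promoters of assembly GRCm38.p6, 5′ to 3′ on the strand of the gene. Capitals mark TGACGT on either strand (read as ACGTCA on the other), the core letters of the cyclic AMP response element, and TATAAA on the strand of the gene. Both motifs were chosen after the letters had been read. Among 27025 promoters of the same length in the table, 6.56% hold TGACGT and 8.12% hold TATAAA. The 4 genes were chosen without a rule, so these shares cannot show whether the motifs are frequent among called genes. Egr1, Klf7, Klf13 and Klf15, also called higher, are not shown, and Ier2 had no entry among these promoters.
Fos, chr12:85473640-85473889, plus strand: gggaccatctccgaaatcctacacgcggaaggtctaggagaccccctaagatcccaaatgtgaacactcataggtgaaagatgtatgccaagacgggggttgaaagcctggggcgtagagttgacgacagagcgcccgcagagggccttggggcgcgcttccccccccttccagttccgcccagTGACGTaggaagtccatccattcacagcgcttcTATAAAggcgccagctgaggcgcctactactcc
Ccn1, chr3:145649986-145650235, minus strand: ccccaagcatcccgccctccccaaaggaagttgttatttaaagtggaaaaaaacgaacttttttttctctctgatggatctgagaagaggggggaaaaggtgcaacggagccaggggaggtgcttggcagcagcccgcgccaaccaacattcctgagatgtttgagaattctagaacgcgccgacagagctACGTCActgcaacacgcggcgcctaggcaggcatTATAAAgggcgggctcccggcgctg
Klf6, chr13:5861239-5861488, plus strand: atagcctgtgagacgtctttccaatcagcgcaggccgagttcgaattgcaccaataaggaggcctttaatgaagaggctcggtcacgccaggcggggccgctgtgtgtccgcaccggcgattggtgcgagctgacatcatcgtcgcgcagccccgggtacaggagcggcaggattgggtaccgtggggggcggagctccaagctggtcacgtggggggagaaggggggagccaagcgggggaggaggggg
Klf9, chr19:23140976-23141225, plus strand: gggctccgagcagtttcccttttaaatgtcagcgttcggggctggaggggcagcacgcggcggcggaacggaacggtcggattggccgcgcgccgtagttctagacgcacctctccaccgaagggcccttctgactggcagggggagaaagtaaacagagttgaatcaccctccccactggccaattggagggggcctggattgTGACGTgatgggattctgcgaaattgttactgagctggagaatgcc
The Fos window holds both motifs, with their first bases 66 and 33 bases before the start, and the Ccn1 window holds both at 59 and 25 bases. The Klf9 window holds TGACGT at 46 bases and no TATAAA. The Klf6 window holds neither sequence of letters, although Klf6 had the largest difference of the 4. A match is a description of the letters and not a bound site.

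Interferon-induced genes also had mostly positive differences. Of 17 tested, 15 were positive with a median of 0.25, and 2 were called higher and 0 lower. Ifit3, which binds foreign RNA ends in antiviral defence, had 7.82 and 7.78 with PTU, against 6.93 and 6.92 on chow, while its 2 other probes differed by 0.19 and 0.22. Gbp3, a guanylate-binding protein, had 8.36 and 8.37 with PTU, against 7.74 and 7.67 on chow, and its other probe differed by 0.80. In the wild-type chow RNA both genes were higher than in the mRID PTU RNA, with 8.89 and 8.73 for Ifit3 and 8.83 and 8.91 for Gbp3.

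The genes of type I pneumocytes, the cells named in the series title, had small positive differences in the mRID lung with PTU. Of 17 tested markers, 15 were positive, with a median of 0.11, while 1 was called higher and 1 lower. The higher one was Sec14l3, a lipid transfer protein also found in airway cells, with 9.25 and 9.22 with PTU, against 8.10 and 8.21 on chow. Its other probe differed by 0.83. The lower one was Igfbp2. Ager, a receptor abundant on type I cells, had 12.45 and 12.13 with PTU, against 12.05 and 12.10 on chow, and Aqp5, their water channel, had 9.81 and 9.63 with PTU, against 9.99 and 9.91 on chow. Neither was called, and the differences were 0.21 (SE 0.16) and -0.23 (SE 0.10). The summed linear signal of the 17 markers was 47171 and 46387 with PTU, against 43058 and 41942 on chow.

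All 26 type II and surfactant genes were tested, and 0 were called higher and 1 lower, with a median of -0.05. Sftpb, the surfactant protein needed for the first breath, had 9.23 and 9.30 with PTU, against 9.93 and 9.90 on chow, and its other kept probe differed by -0.15. Sftpc differed by -0.09, and Lamp3, a protein of lamellar bodies, by 0.01. Of 11 airway secretory markers, 1 was called higher, Sec14l3 again, and 2 lower, Reg3g and Scgb3a1. The median was -0.17, and Scgb1a1, the main club cell protein, had 13.73 and 13.76 with PTU, against 13.92 and 13.94 on chow. The 12 ciliated cell markers had 11 negative differences and a median of -0.12, and 0 were called. Their largest difference was -0.47 for Spag6l, a protein of the ciliary axoneme.

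Endothelial and mesenchymal lists moved little as wholes. Of 22 endothelial genes, 2 were called higher and 0 lower, with a median of 0.09. Edn1, the vasoconstrictor peptide endothelin, had 8.26 and 8.12 with PTU, against 7.27 and 7.49 on chow, and Flt1, a receptor of vascular endothelial growth factor, had 10.39 and 10.48 with PTU, against 9.76 and 9.85 on chow. Car4, a carbonic anhydrase of capillaries, was not called at 0.54, and Plvap, a protein of fenestrated vessels, had -0.43. Of 13 smooth muscle genes 0 were called, with a median of 0.10, and Acta2, the smooth muscle actin, differed by 0.38.

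Of 24 matrix and mesenchymal genes, 1 was called higher and 1 lower, with a median of 0.04. Col1a2, a chain of type I collagen, had 10.65 and 10.80 with PTU, against 9.50 and 9.64 on chow, a 2.23-fold difference, and Lum was the lower one. Col1a1, the other chain of type I collagen, differed by 0.04 and was not called. The proteoglycan gene Dcn had -0.50 and was not called. Of 18 integrin and adhesion genes, Lims1 and Itga2 were higher and Itga9 lower, with a median of 0.08. Itga2 had passed the detection filter through the PTU arrays alone. Over the 17 that passed in both groups, 1 was called higher and 1 lower, with a median of 0.03. Of 27 lung transcription factors and morphogens, 2 were called higher and 0 lower, with a median of 0.07: Foxp1, a forkhead repressor of lung epithelium, had 7.99 and 7.79 with PTU, against 7.07 and 7.04 on chow, and Tgfb2, a growth factor, had 8.41 and 8.45 with PTU, against 7.69 and 7.51 on chow.

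**Figure D3:**
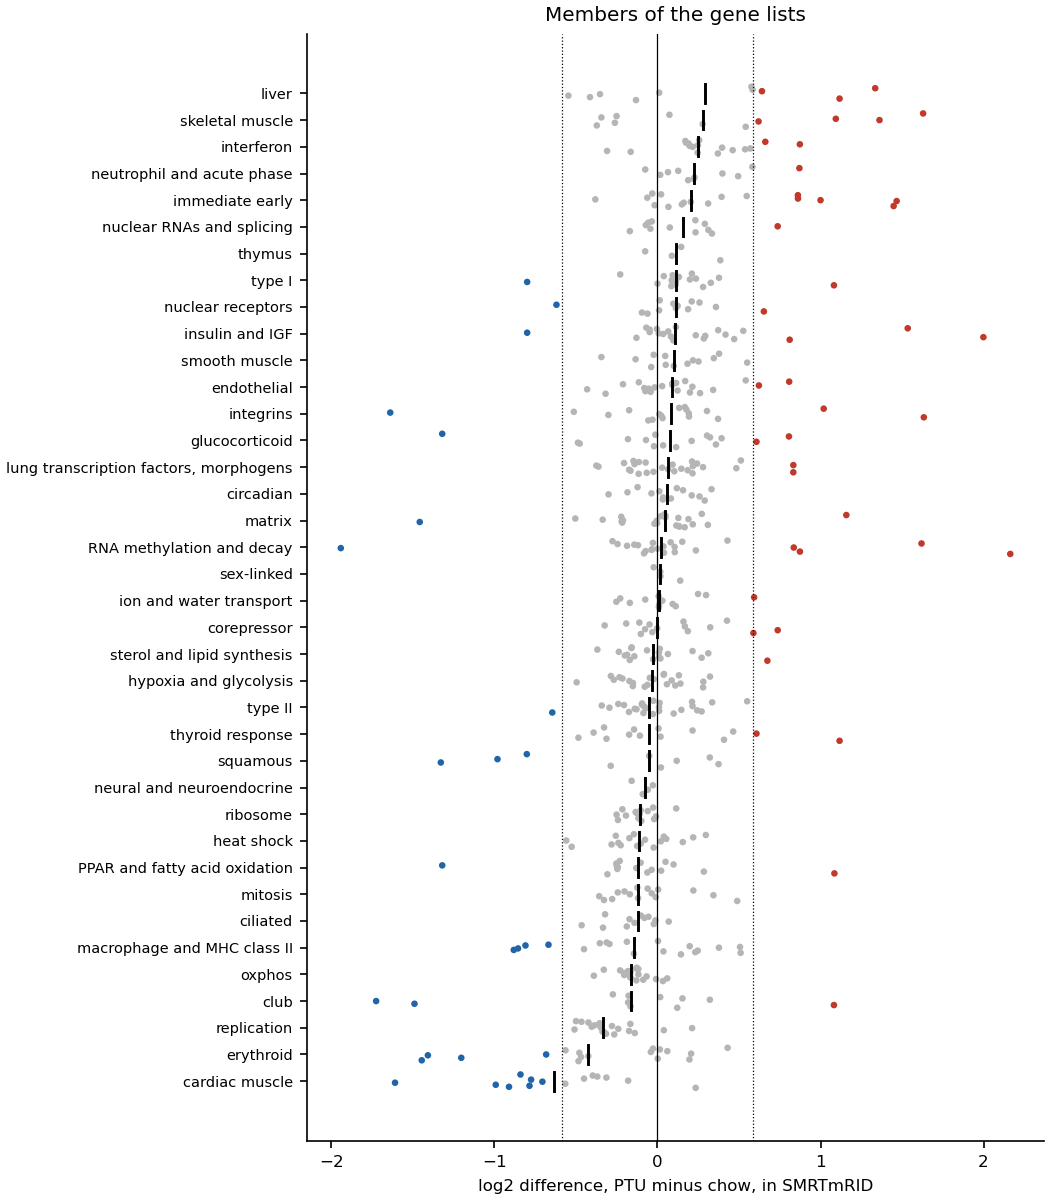
Each point is a tested member of 1 of 38 gene lists at its log2 difference, PTU minus chow, in the mRID lungs, with red for called higher, blue for called lower and grey for not called. Black bars are the list medians, in descending order from liver at 0.29, where 5 of 10 members passed through the PTU arrays alone, to heart muscle at -0.64, and dotted lines mark 1.5-fold. Most list medians lie near 0, and the called members of most lists are few.

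Heart and red cell genes had the lowest list medians over all tested members, while over members that passed in both groups the median of replication genes, at -0.33, lay below that of red cell genes. Of 14 heart muscle genes, 7 were called lower and 0 higher, against 0.84% called lower over all genes. The list median was -0.64. Among the 12 that passed the detection filter in both groups, 6 were called lower, with a median of -0.67. Myl3, a ventricular myosin light chain, had 4.66 and 4.89 with PTU, against 6.28 and 6.49 on chow, and Actc1, cardiac actin, had 8.40 and 8.60 with PTU, against 9.40 and 9.28 on chow. Myh6, the atrial myosin heavy chain, differed by -0.78, Tnnc1 by -0.91, Sln by -0.79 and Myl7 by -0.99, and Myl2 was the remaining one. The summed signal of the 14 genes was 1858 and 1879 with PTU, against 2988 and 3011 on chow, and 5783 and 5679 in the wild-type chow RNA. The defining markers Nkx2-5 and Nppa were undetected on all 4 mRID arrays. Heart genes are also active in muscle of pulmonary veins, and the part that tissue carried along with the lung played in these values was not tested.

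Of 17 red cell genes, 4 were called lower and 0 higher, against 0.84% called lower over all genes. The list median was -0.42, or -0.23 over the 16 that passed the detection filter in both groups. Slc4a1, the anion exchanger of the red cell membrane, had 9.34 and 9.26 with PTU, against 10.44 and 10.56 on chow. Kel, a blood group protein, had 4.86 and 4.73 with PTU, against 6.21 and 6.21 on chow, and Trim10, a protein of erythroid maturation, had 5.26 and 5.42 with PTU, against 6.72 and 6.85 on chow. Hbb-y, an embryonic globin whose probe may also read related globin genes, had 7.10 and 6.72 with PTU, against 7.55 and 7.64 on chow. Ermap at -0.56, Tspo2 at -0.48, Hba-x at -0.48 and Nfe2 at -0.47 were also negative and were not called. Hba-a1 differed by -0.04, and Alas2, the first enzyme of haem synthesis in red cells, by 0.43. Of the 17 differences, 11 were negative and 6 positive. The summed red cell signal was 25680 and 27465 with PTU, against 26828 and 28144 on chow, and these ranges overlapped.

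Skeletal muscle genes included members that were higher. Of 11 tested, 4 were called higher and 0 lower, against 2.62% called higher over all genes. The list median was 0.28. Acta1, skeletal actin, had 6.66 and 6.60 with PTU, against 5.02 and 4.98 on chow, and Myl1, a fast myosin light chain, had 8.14 and 8.07 with PTU, against 6.74 and 6.74 on chow. Myh8, the perinatal myosin heavy chain, had 7.07 and 6.97 with PTU, against 5.94 and 5.91 on chow, while its other probe differed by 0.30, and Mylpf differed by 0.62. Tnnt1 at -0.37, Des at -0.34, Tnni1 at -0.26 and Ckm at -0.25, which encode troponin subunits, desmin and muscle creatine kinase, had negative differences and were not called. Tnnt3 at 0.54, Tnni2 at 0.28 and Atp2a1 at 0.07 had positive differences and were not called either. The summed signal was 1016 and 976 with PTU, against 747 and 741 on chow. The part of attached muscle in this was not tested.

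Of 10 liver genes, 3 were called higher and 0 lower, with a median of 0.29. All 3, and Afp and Apoa1, had passed the detection filter through the PTU arrays alone, so this count and median carry no weight. The 5 members that passed in both groups had 0 calls and a median of -0.35, with Hp at 0.01, Vtn at -0.13, Itih2 at -0.35, Trf at -0.41 and Rbp4 at -0.55. Ahsg, a plasma glycoprotein, had 5.87 and 5.88 with PTU, against 4.39 and 4.69 on chow, where 1 of 2 arrays detected it, and Fga, a fibrinogen chain, was at least 1.25-fold higher. Ttr, the third, was undetected on chow (its values are given above). Alb was undetected on all 4 mRID arrays. The summed signal of the list ran the other way, at 6235 and 6022 with PTU, against 6674 and 7472 on chow. Of 9 squamous epithelial genes, 3 were called lower and 0 higher, against 0.84% called lower over all genes. The list median was -0.05. Psca, a surface protein of epithelia, had 4.56 and 4.78 with PTU, against 6.02 and 5.98 on chow, and was detected on 1 of its 2 PTU arrays, and the keratin gene Krt4 had 4.75 and 4.71 with PTU, against 5.73 and 5.70 on chow. Krt13, another keratin gene, was undetected with PTU and at least 1.45-fold lower. Psca and Krt13 had passed the detection filter through the chow arrays alone. The 6 members that passed in both groups had a median of 0.07, and Krt4 was the 1 call among them. In the wild-type chow RNA, Psca had 7.91 and 7.75 and Krt4 had 7.95 and 8.04. The summed squamous signal was 949 and 1038 with PTU, against 1026 and 988 on chow. The part of other tissues in the liver and squamous values was not tested.

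Genes of antigen presentation by MHC class II were among the lower ones. Of 19 macrophage and antigen presentation genes, 4 were called lower and 0 higher, against 0.84% called lower over all genes. The list median was -0.14. H2-Eb1, a chain of MHC class II, had 5.77 and 5.81 with PTU, against 6.66 and 6.69 on chow, and another chain, H2-Aa, had 6.61 and 6.56 with PTU, against 7.28 and 7.60 on chow. Cd74, their chaperone, had 8.03 and 8.07 with PTU, against 8.83 and 8.89 on chow, and its other probe differed by -0.97. Cd14, a receptor of bacterial lipopolysaccharide, differed by -0.67. Lyz2, the lysozyme of macrophages and type II cells, was not called at 0.23, and the list's summed signal was 38667 and 38562 with PTU, against 36872 and 35582 on chow. Of 11 neutrophil and acute phase genes, 10 had positive differences with a median of 0.22, and Chil3, a chitinase-like protein, was called higher with 7.33 and 7.36 with PTU, against 6.40 and 6.54 on chow.

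Growth and metabolism lists had few calls and shared small shifts. Of 20 DNA replication genes 18 were negative, with a median of -0.33 and 0 called. Pole, a replicative polymerase, had 6.86 and 6.70 with PTU, against 7.26 and 7.32 on chow, and Cdc6, which licenses origins, had 5.95 and 6.21 with PTU, against 6.67 and 6.49 on chow. The summed replication signal was 6874 and 6790 with PTU, against 8391 and 8490 on chow. Of 15 mitosis genes 0 were called, with a median of -0.12. Of 16 ribosomal protein genes 15 were negative with a median of -0.11, and of 21 oxidative phosphorylation genes 19 were negative with a median of -0.16, with 0 called in either list. Median scaling in place of quantile normalization moved the ribosomal median to -0.24.

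Of 16 genes of fatty acid oxidation and peroxisome proliferator-activated receptor targets, Ppargc1a, a coactivator that drives mitochondrial genes, was called higher with 5.62 and 5.80 with PTU, against 4.80 and 4.45 on chow, and Angptl4 was lower. The median was -0.12. Ppargc1a had passed the detection filter through the PTU arrays alone. Over the 15 members that passed in both groups, 0 were called higher and 1 lower, with a median of -0.13. Of 19 sterol and fatty acid synthesis genes, Stard4, a sterol carrier, was called higher with 9.25 and 9.33 with PTU, against 8.62 and 8.62 on chow, and the median was -0.03. Of 16 glucocorticoid response genes 2 were called higher and 1 lower, with a median of 0.07. They were Crispld2, a secreted protein of lung mesenchyme, with 6.45 and 6.40 with PTU, against 5.55 and 5.68 on chow, and Klf9 and Angptl4. Of 13 genes of ion and water transport, Aqp4 was called higher at 1.51-fold, with a median of 0.01. Of 12 nuclear RNA and splicing genes, the splicing factor gene Rbm39 was called higher at 0.74, detected on 1 of 2 chow arrays, with a median of 0.15. Over the 11 that passed in both groups, 0 were called, with a median of 0.08. Heat shock, hypoxia and circadian genes had 0 calls each among 18, 22 and 14 genes, with medians of -0.11, -0.03 and 0.06. The 4 neural, 4 thymus and 4 sex-linked genes tested also had 0 calls, with medians of -0.07, 0.12 and 0.02. In all, 66 of 571 tested list members (11.6%) were called, 39 higher and 27 lower, against 3.46% of all genes. These lists were drawn up with results of these data known, so this share is no evidence about their pathways.

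The wild-type lungs show how the same diet differed from chow without the mutation. Among the same 9998 genes, 352 (3.52%) were called in wild type, 111 higher (1.11%) and 241 lower (2.41%). The 2 comparisons share no arrays. Of the 262 genes higher in mRID, 6 were also higher in wild type with PTU, 15 were lower and 241 were not called, and their median difference in wild type was -0.10. Of the 84 genes lower in mRID, 25 were also lower in wild type, 11 were higher and 48 were not called, with a median of -0.08. Across all genes the differences of the genotypes had a Pearson correlation of -0.06 and a Spearman correlation of -0.15, a description over genes, which are not independent. Zc3h13, the largest higher gene in mRID, differed by -0.30 in wild type, and Irs2 had 5.38 and 5.14 with PTU in wild type, against 5.20 and 5.33 on chow. Paip1, Itga9 and Scgb3a1 were lower in both genotypes, by -1.94, -1.64 and -1.49 in mRID and by -4.20, -3.44 and -4.25 in wild type.

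Genes called in opposite directions included Ier2, at 1.47 in mRID and -1.49 in wild type, Fos, at 1.00 in mRID and -1.74 in wild type, and Ifit3, at 0.87 in mRID and -2.28 in wild type. Angptl4 was the reverse case, at -1.32 in mRID and 1.87 in wild type. As lists, immediate early genes had 5 higher and 0 lower calls in mRID against 0 higher and 10 lower in wild type, and interferon genes 2 higher and 0 lower in mRID against 0 higher and 13 lower in wild type. Heart muscle genes were lower in both, with 7 of 14 lower in mRID and 10 of 14 in wild type. Of 17 type I markers, 1 was higher and 1 lower in mRID, against 1 higher and 4 lower in wild type, with medians of 0.11 in mRID and -0.36 in wild type. Hypoxia and glycolysis genes had 0 calls in mRID and 7 higher and 1 lower in wild type. The shares over all genes were 2.62% higher and 0.84% lower in mRID, and 1.11% and 2.41% in wild type. None of these differences between genotypes was tested, since each group is 1 RNA sample. The male-linked gene Kdm5d differed by -0.72 and Xist by 0.99 in the wild-type comparison, against 0.02 and 0.14 in mRID, and their part in the wild-type values was not tested.

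**Figure D4:**
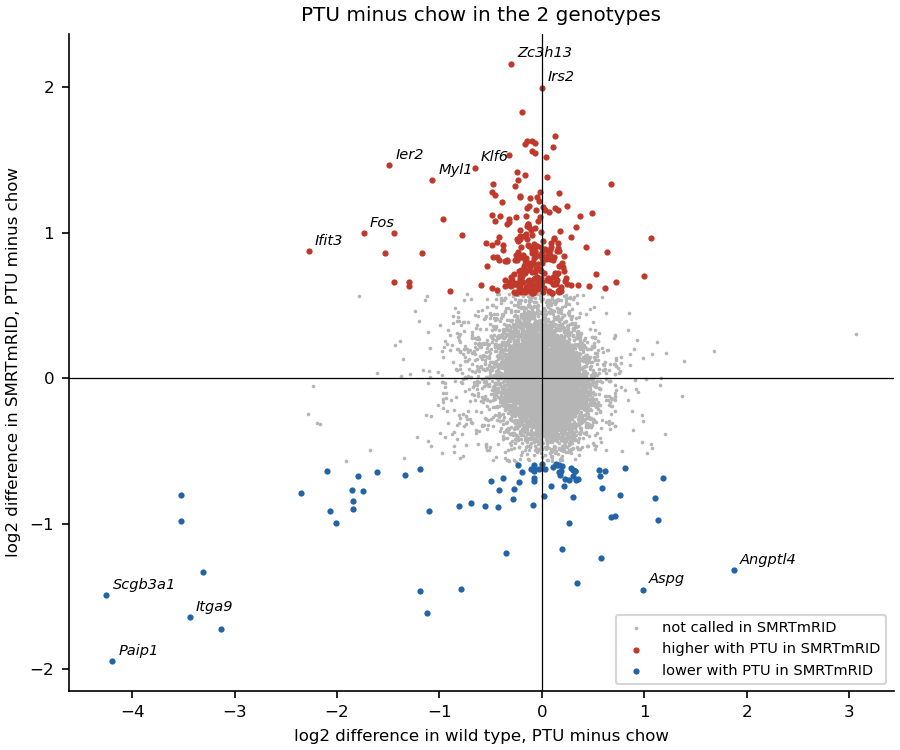
Each point is 1 of 9998 genes, with the log2 difference, PTU minus chow, in mRID lungs on the vertical axis and in wild-type lungs on the horizontal axis. Red points were called higher and blue points lower in mRID. Most red points lie near 0 on the wild-type axis, while Paip1, Scgb3a1 and Itga9 are low on both axes and Angptl4, at -1.32 in mRID and 1.87 in wild type, lies at the lower right.

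The call already placed the higher genes above both mRID chow arrays, so only their place against the 4 wild-type arrays was free. For 239 of the 262, both mRID PTU arrays lay above all 6 other arrays, and for 248 the mRID PTU mean was the highest of the 4 RNA samples. Over all 9998 genes, both mRID PTU arrays lay above all 6 others for 935 (9.35%) and below them for 1065 (10.7%). For the wild-type PTU RNA the same shares were 10.2% and 8.39%. The median level of these 262 genes was 7.22 in the mRID PTU RNA, 6.25 in the mRID chow RNA, 6.30 in the wild-type PTU RNA and 6.32 in the wild-type chow RNA. For 44 of the 84 lower genes, both mRID PTU arrays lay below all 6 other arrays. Of the 84, 18 had also been called lower and 13 higher in the mRID chow RNA than in the wild-type chow RNA. Of the 262 higher genes, 14 had been called lower and 0 higher in that comparison. Over all 9998 genes, 152 were called in it in either direction. It shares the mRID chow arrays with the PTU comparison, so these counts are not independent of the calls.

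The higher and lower genes differed in genomic span, which the choice of genes did not use. The 262 higher genes had a median span of 40.0 kb from the first to the last base of the gene in RefSeq, the 84 lower genes 10.8 kb, and all tested genes 22.0 kb. Of the higher genes 183 (69.8%) and of the lower genes 20 (23.8%) were longer than the median of all. When the genes were ordered by span and divided into 5 groups of equal size, 1.35%, 1.45%, 2.45%, 2.80% and 5.05% were called higher in the mRID lungs from the shortest to the longest. The shares called lower were 1.60%, 1.00%, 0.75%, 0.30% and 0.55%. In the wild-type lungs the shares called higher were 1.25%, 1.35%, 1.25%, 0.90% and 0.80%, and the shares called lower were 3.15%, 2.55%, 2.15%, 1.45% and 2.75%. The difference between genotypes was not tested. By level, the calls were more frequent among dim genes, with 3%, 3.70%, 3.15%, 1.95% and 1.30% called higher from the dimmest to the brightest of 5 such groups.

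**Figure D5:**
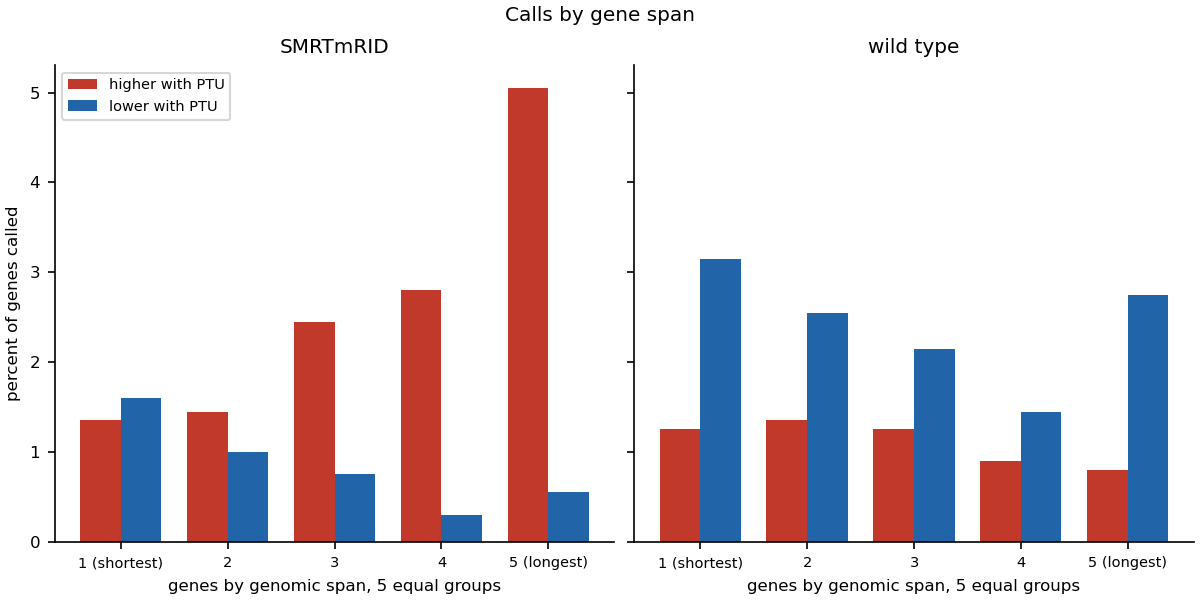
Bars give the percent of genes called higher (red) and lower (blue) with PTU in mRID lungs (left) and wild-type lungs (right), by genomic span in 5 groups of 1999 genes each. The share called higher in mRID is 1.35% for the shortest and 5.05% for the longest genes, against 1.25% and 0.80% in wild type. The share called lower is highest in the shortest group in both genotypes, at 1.60% in mRID and 3.15% in wild type.

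Other probes of the same genes gave another reading of the differences. Of the 262 higher genes, 75 had other kept probes, 100 in all, of which 82 had the same sign and 35 were called higher too. For 26 of the 75 genes every other probe was called higher, and for 44 none was. The median difference was 0.83 for the probes used, which the call rule selected, and 0.43 for the others. Golga2, a Golgi matrix protein chosen here after its values were seen, had 1.38 on the probe used and 0.31, -0.08 and -0.22 on the others. Trim2, Tmem63b, Gkap1 and Map1b, also chosen after their values were seen, differed by 1.25, 1.26, 1.16 and 1.26 on the probes used and by 0.05, -0.18, 0.02 and -0.01 on the others. Of the 84 lower genes, 17 had another kept probe, of which 16 had the same sign and 7 were called lower. Zc3h13, Irs2 and Paip1 each rested on 1 kept probe. The 861 kept probes with no gene name had 41 higher and 9 lower calls (5.81%).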

How the data were processed

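Per the labels' protocols, lung RNA came from a Trizol extraction, was cleaned with DNase on columns, and was converted to biotin-labelled cRNA, and GenomeStudio is named in the submitters' processing notes, with no version. The first deposited table gives, per the file headers, an average signal (a linear intensity, not normalized) with its detection p-value. A second deposited table holds intensity values that appear normalized between arrays, by a method not given in the sources used here, and served as an alternative. Its scale is linear and uncentred.

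From the first table, all 8 arrays were background-corrected with the detection p-values, given an offset of 16, log2-transformed and quantile normalized (neqc, limma 3.58.1, R 4.3.3). Mean signals of the mRID arrays were 294 to 335, and the number of arrays limits the precision. Array columns carry letters and titles carry replicate numbers, so arrays are not matched to replicate numbers. The platform annotation named the genes: 23978 probes had 1 symbol, 0 several and 1719 were not listed. Of the named probes 23962 matched RefSeq by gene identifier, and 0 symbols changed. For each gene, the kept probe that was brightest on average over the mRID arrays was used, and 2605 genes had several kept probes. The call rule, the bounds and the counts were computed in Python 3.11.15 with pandas 2.3.3 and numpy 2.4.6, drawn with matplotlib 3.10.9, and the calls were checked on simulated data.

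Genes were named by a rule: the 15 largest differences each way among called genes detected on all 4 mRID arrays, the 5 largest bounds each way, and from each of 38 lists the called members (up to 8) and up to 4 others with the largest differences. Members and lists were chosen with earlier results of these data known. Outside the rule, Sftpc, Pdpn, Ager, Lamp3, Hba-a1, Alas2 and Lyz2 are named as defining markers and Mafk and Lpgat1 as the edge of the call rule, after their values were seen. Col1a1 is named beside Col1a2, also after its value was seen. Thrb, Dio1, Dio2, Nkx2-5, Nppa and Alb are named outside the rule as genes undetected on the mRID arrays. Tnni1, Ckm, Atp2a1, Hp, Vtn and Itih2 are named to complete the members of their lists, after their values were seen. Some uncalled members that the rule selects, such as Ank3 and Clic5, are not printed. Alternatives covered the normalization, background, offset, table, filter, probes per gene, call rule and each array left out. No result across animals was tested. Gene spans and promoters come from RefSeq, assembly GRCm38.p6.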

Additional observations from a re-analysis of the deposited data

Results flagged for a closer look

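For 13 genes named in the comparison, the PTU difference in mRID lungs and that in wild-type lungs lay in opposite directions on every array, both past 1.5-fold. The values below are the difference in mRID minus the difference in wild type, on the log2 scale. None of these differences between genotypes was tested, because each group is 1 RNA sample. Among immediate early genes the value was 2.96 for Ier2, 2.74 for Fos, 2.39 for Egr1, 2.10 for Klf6 and 2.03 for Ccn1. Among interferon-induced genes it was 3.15 for Ifit3 and 2.11 for Gbp3, and among skeletal muscle genes 2.43 for Myl1 and 2.06 for Myh8. These 9 genes were higher with PTU in mRID and lower with PTU in wild type. The other 4 were lower with PTU in mRID and higher in wild type: Angptl4 at -3.20, Aspg at -2.44, Hbb-y at -1.86 and Igfbp2 at -1.56. Sets of 2 arrays were too small for a check of single deviating arrays.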

How the results depend on the processing

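The counts depended on the offset and the threshold more than on the scaling. The 346 calls in mRID (262 higher, 84 lower) were 173 (142 and 31) without background correction and 174 (143 and 31) with an offset of 50, which by construction shrink differences of dim genes. They were 223 from the deposited processed table (45 lower), 81 at 2-fold (67 and 14) and 221 with the closest arrays 1.5-fold apart (45 lower). Median scaling gave 297 higher and 67 lower, and kept 258 of the 262 and 63 of the 84. A limma fit that took the technical arrays as replicates gave 261 and 84. It holds array error only and says nothing about the spread between animals. Leaving out an array of mRID gave 383 to 407 calls, 283 to 302 higher and 100 to 116 lower.

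In wild type the 352 calls were 208 (65 higher, 143 lower) without background correction, 215 (69 and 146) with an offset of 50 and 82 (19 and 63) at 2-fold, and 65 were higher with the closest arrays 1.5-fold apart. Leaving out an array of wild type gave 387 to 424 calls, 131 to 149 higher and 256 to 275 lower. The 66 called list members were 28 at 2-fold and 69 to 81 with an array left out. The 183 higher genes longer than the median were 103 without background correction, 103 with an offset of 50, 54 at 2-fold and 195 to 208 with an array left out. The 54 called genes with no other kept probe called the same way were 96 with no filter on dim probes, 17 at 2-fold and 55 to 69 with an array left out. Beyond these constructions the cause was not tested.

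Of 81 called named genes, 57 were still called with an offset of 50 and 75 to 79 with an array left out. In the alternative runs 0 called values changed sign. Every run reused arrays of the same RNA samples, and called genes differ by at least 1.5-fold, so a change of sign was unlikely from the start. No paired analysis was possible because the replicate numbers mark technical arrays of 1 RNA sample, the array columns carry letters in their place, and the comparison has no test. Depth here is signal over background: 23 higher and 3 lower genes were undetected in the dimmer group and have bounds alone.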

Other observations

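Some gene families outside the lists are described here by symbol, chosen after their values were seen. Histone genes with H1f, H2ac, H2bc, H3c or H4c symbols, most of which are transcribed during DNA replication, had 6 lower and 0 higher calls among 38, with 30 negative differences and a median of -0.23 in mRID. The called ones were H4c12 at -0.99, H4c11 at -0.70, H3c6 at -0.69, H4c9 at -0.67, H3c1 at -0.63 and H2bc12 at -0.59. Over all genes, 0.84% were called lower in mRID. The wild-type median of the histone family was 0.13, with 22 positive differences. The genes are near-identical copies, so a probe may read several of them. In the list of DNA replication genes 18 of 20 differences were negative, with a median of -0.33. All 6 tested genes of MHC class II and its chaperones had negative differences in mRID, from -0.88 for H2-Eb1 to -0.13 for H2-DMa, and H2-DMb1, which helps load peptide, was called lower at -0.64.

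Of 12 Kruppel-like factors, a family of zinc-finger regulators, 5 were called higher and 0 lower in mRID, against 2.62% higher over all genes. They were Klf6 at 1.45, Klf7 at 0.77, Klf15 at 0.69, Klf13 at 0.68 and Klf9 at 0.61, and the family median was 0.27 in mRID and -0.22 in wild type, where 3 were called lower. Of 12 Hox genes, which set position along the body axis, Hoxb4 and Hoxb3 were called higher at 1.15 and 0.96, while their cluster neighbours Hoxb2, Hoxb5 and Hoxb6 had 0.05, -0.10 and -0.08. Of 17 dual specificity phosphatases, 4 were called higher (Dusp18, Dusp23, Dusp7 and Dusp22, at 0.84 to 0.64) and Dusp4 lower at -0.64. Over all genes, 2.62% were called higher and 0.84% lower. Zinc-finger genes with a Zfp symbol had 5 higher and 0 lower calls among 197 and a median of 0.05. Their share of higher calls was near the 2.62% over all genes. Of 70 mitochondrial ribosomal protein genes 56 had negative differences, with a median of -0.13 and 0 calls.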
